A study of Drosophila melanogaster with 2 samples.

Results

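The 7 genes chinmo, mamo, Syp, Imp, lin-28, cas and svp, which give neurons and other cells a temporal identity in Drosophila melanogaster, were examined for binding of the transcription factor Eip93F. They were chosen by name, out of 13968 protein-coding genes, and not by a rule on their binding. Earlier results of these data were known when they were chosen. Each was given the reproducible peaks whose summit, the position of highest signal in a peak, lay in the gene or within 5 kb of it. By this rule 4 of the 7 genes had a summit, and they held 12 of the 3401 reproducible peaks: 7 at Syp, 2 at chinmo, 2 at mamo, 1 at Imp and 0 at lin-28, cas and svp.

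The peaks come from chromatin immunoprecipitation with sequencing in 2 biological replicates of 1 group, whole prepupae of both sexes and of unrecorded age. The animals were of the strain Eip93F-MiMIC-GFP, in which an inserted exon fuses GFP to the Eip93F gene, and the fusion protein was pulled down with an antibody to GFP. The prepupa is the short stage between the larva and the pupa. There was no second genotype, stage or treatment, so nothing was compared between conditions and no test was made. Chromatin of all tissues was mixed, so the neurons in which these genes are best known were not separated from other cells, and binding in few cells and weak binding in many cells cannot be told apart.

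Temporal identity genes tell a dividing progenitor, and the cells born from it, whether development is early or late. In neural stem cells the RNA-binding proteins Imp and Syp oppose each other, Imp being high early and Syp high late, and together they set the level of Chinmo, a BTB zinc-finger protein of early-born and larval-state cells. Eip93F, also named E93, is induced by the steroid hormone ecdysone and promotes adult fates, and in late neural stem cells it follows the shift from Imp to Syp.

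The sequences below are the 101 bp centred on 7 of the 12 summits, on build dm6 as held by RefSeq. They are shown because they are the strongest peaks at Syp and all the peaks at chinmo, mamo and Imp. Capitals mark GATAAG, the core word of GATA factors, or GAGAG, the word of the GAGA factor, each on either strand.
Syp chr3R:20778717-20778817, forward strand: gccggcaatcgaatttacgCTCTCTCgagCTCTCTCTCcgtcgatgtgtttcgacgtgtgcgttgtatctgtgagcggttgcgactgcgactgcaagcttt
Syp chr3R:20782868-20782968, forward strand: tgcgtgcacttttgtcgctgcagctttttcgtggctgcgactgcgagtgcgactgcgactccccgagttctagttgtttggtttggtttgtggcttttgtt
chinmo chr2L:1649727-1649827, forward strand: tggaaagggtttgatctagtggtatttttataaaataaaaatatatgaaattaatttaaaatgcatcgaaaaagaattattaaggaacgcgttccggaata
chinmo chr2L:1693105-1693205, forward strand: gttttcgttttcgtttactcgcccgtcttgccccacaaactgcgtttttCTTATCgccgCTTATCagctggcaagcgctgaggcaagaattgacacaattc
mamo chrX:13890974-13891074, forward strand: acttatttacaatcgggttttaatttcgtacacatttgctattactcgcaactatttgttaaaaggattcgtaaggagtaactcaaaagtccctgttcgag
mamo chrX:13990573-13990673, forward strand: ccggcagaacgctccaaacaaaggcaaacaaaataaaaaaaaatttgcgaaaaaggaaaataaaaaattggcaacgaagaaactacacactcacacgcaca
Imp chrX:10784500-10784600, forward strand: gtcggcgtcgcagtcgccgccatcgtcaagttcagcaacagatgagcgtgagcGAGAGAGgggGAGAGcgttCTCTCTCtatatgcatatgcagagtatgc
The capitals in the second chinmo window are 2 copies of GATAAG on the reverse strand, 4 bp apart. The capitals in the first Syp window and in the Imp window are runs of alternating G and A, read on one strand or the other. The first chinmo window and both mamo windows are rich in A and T and hold neither word.

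Among all protein-coding genes, 34.7% (4850 of 13968) had a reproducible summit within 5 kb, against 4 of the 7 temporal identity genes. Long genes catch more summits, so each gene was also read against genes of its own length. Among genes with a span of 30 to 60 kb, 47.4% (206 of 435) had a summit, and of the 4 temporal identity genes of that length chinmo, Syp and Imp had one and svp did not. Among genes under 10 kb the share was 32.4% (3887 of 11983), and both lin-28 and cas, which are that short, were without a summit. Among genes over 100 kb it was 47.1% (41 of 87), and mamo, the one member of that length, had 2 summits where the mean was 2.26. With so few genes in each class, a count of presence or absence lies near the background and says little of these genes as a set.

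The number of summits set Syp apart from the other members. Of the 435 genes of 30 to 60 kb, 3.68% (16 genes) had 7 or more summits, and Syp was 1 of those 16. The median in that class was 0 summits, the mean 1.32 and the maximum 15. Other genes of this length therefore held as many peaks as Syp, and the count is a description of this gene and not a test.

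**Figure D1:**
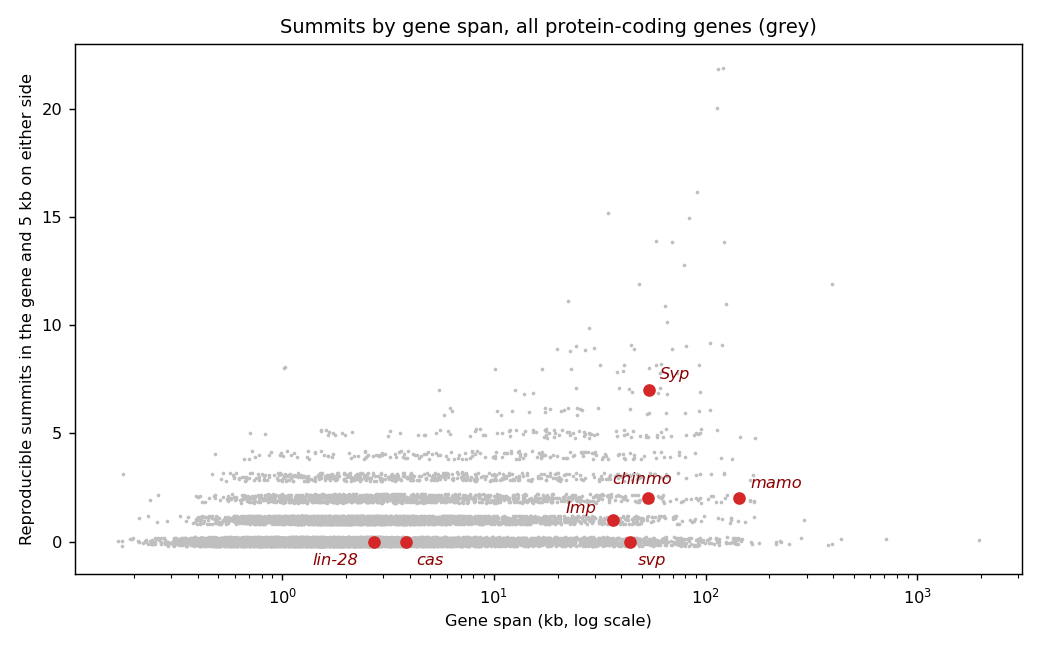
Reproducible summits within 5 kb (vertical axis, number) against gene span (horizontal axis, log scale) for all 13968 protein-coding genes, in grey with a small vertical scatter, with the 7 temporal identity genes in red. Syp lies at 7 summits among genes whose class mean is 1.32, while lin-28, cas and svp lie at 0.

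Syp (FBgn0038826, chr3R:20756729-20810726, forward strand) encodes Syncrip, the RNA-binding protein of late-born neurons. Its 7 summits all lay inside the gene and made 1.09 summits per 10 kb of the gene and its flanks, where the 6 chromosome arms held 0.254 per 10 kb. They were not spread evenly over the 53998 bp of the gene. The 4 summits from 20778767 to 20782918 followed each other at distances of 1311, 2176 and 664 bp, around the internal start sites, and the other 3 lay farther apart in introns.

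The strongest peak at any of the 7 genes had its summit at chr3R:20778767, 128 bp upstream of the start site shared by the transcripts Syp-RB, Syp-RN and Syp-RR. Its pooled signal, the peak caller's own measure for both replicates together, was 407 and ranked 112 of 3401. In replicate 2 the entry holding this summit had a signal of 174 and ranked 118. In replicate 1 the entry holding it had a signal of 92.2 and ranked 1026, while a narrower entry of 179 bp beside it, with its summit 92 bp away, had a signal of 241 and ranked 94. Replicate 1 thus split this site into 2 entries, and its rank there depends on which one is taken.

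The next strongest peak at Syp, with its summit at chr3R:20782918, lay 65 bp upstream of the start site of Syp-RF, Syp-RL and Syp-RP. Its pooled signal was 218, rank 545. Its signal was 142 in replicate 1, rank 414, and 63.6 in replicate 2, rank 1712. Another peak at an internal start, with its summit at chr3R:20780078, lay in the 5′ UTR of Syp-RC, 297 bp downstream of its start site, with a pooled signal of 105 and rank 2616. It had a signal of 70.6 and rank 1804 in replicate 1, and 39.9 and rank 4354 in replicate 2. Each of these 3 peaks lay at a different internal start site of Syp, whereas the first start site, used by 7 annotated transcripts, had no reproducible summit within 500 bp. The nearest pooled entry to that first start site had a signal of 32.9 and rank 15780, and the nearest to the last start site, used by 6 transcripts, had 27.4 and rank 20590.

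The other 4 Syp peaks had pooled signals from 94.1 to 111, a range that holds the 105 of the peak in the 5′ UTR. The peak with its summit at chr3R:20762486 lay in a Syp intron, 117 bp upstream of the start of the nested gene CG31195, with a signal of 39.5 in replicate 1 and 54.0 in replicate 2. The intronic peak at chr3R:20766006 had a signal of 43.5 and rank 4576 in replicate 1, and 87.6 and rank 786 in replicate 2. The intronic peaks at chr3R:20782254 and chr3R:20788711 went the other way, with ranks 1913 and 1519 in replicate 1. In replicate 2 no entry held the first of these summits, the strongest entry overlapping that peak ranking 5290, and the entry at the second ranked 5617. The replicates therefore differed in which of the weak Syp peaks stood higher, while both placed the peaks at chr3R:20778767 and chr3R:20782918 among their leading 3401 entries.

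chinmo (FBgn0086758, chr2L:1651258-1704682, forward strand) encodes the BTB zinc-finger protein named above. Its stronger peak had its summit at chr2L:1693155, in an intron 41897 bp into the gene and 11747 bp from the nearest start site, which is that of cpb, the capping protein beta gene. Its pooled signal was 129.1, rank 1714, with 70.3 in replicate 1 and 58.3 in replicate 2. This is the window with both copies of GATAAG. The other peak had its summit at chr2L:1649777, 1481 bp upstream of the first chinmo start site and in no gene. Its pooled signal was 115.3, rank 2175, with 69.4 in replicate 1 and 49.6 in replicate 2. Both chinmo peaks were among the leading 3401 entries of each replicate, and they lay 43378 bp apart, one ahead of the gene and the other in it.

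Neither annotated chinmo start site had a reproducible summit within 500 bp. At the first start a weaker pooled entry lay 62 bp downstream, with a signal of 57.8 and rank 6990. The replicates differed at that position, with a signal of 46.7 and rank 3254 in replicate 2 and 16.1 and rank 20994 in replicate 1. In an intron behind the second start, the entry with its summit at chr2L:1669910 had a pooled signal of 87.6 and rank 3549, just below the lowest signal of the reproducible set, 89.8. It had a signal of 52.7 in replicate 1 and 31.3 in replicate 2. Taken from the leading 3401 entries of one replicate alone, chinmo would have had 5 summits without replicate 2 and 3 without replicate 1, in place of 2. The 5 include overlapping entries with summits at chr2L:1649736 and chr2L:1649948, which both hold the upstream reproducible summit.

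mamo (FBgn0267033, chrX:13846116-13990527, reverse strand) encodes a BTB zinc-finger protein that marks a middle window of temporal identity in mushroom body neurons. One of its peaks had its summit at chrX:13990623, 96 bp upstream of the most distal of its 5 start sites, that of mamo-RG. This peak, chrX:13990418-13990827, also holds the start site of the noncoding RNA gene lncRNA:CR44655, at 13990733. It therefore cannot be assigned to mamo alone. The pooled signal of the peak was 113, rank 2244. Its signal was 79.7 in replicate 1, rank 1394, and 32.3 in replicate 2, rank 6243. The other peak had its summit at chrX:13891024, in an intron 99503 bp into the gene, with a pooled signal of 118 and rank 2081. The replicates were closer in rank there, with a signal of 60.7 and rank 2447 in replicate 1 and 61.0 and rank 1884 in replicate 2. The summit of the replicate 2 entry lay 122 bp from the pooled summit, and that of the replicate 1 entry 9 bp from it. The replicate 2 summit lay closer, at 79 bp, to that of a weaker pooled entry at chrX:13891225, rank 6755. Taken from replicate 2 alone, mamo would have kept 1 summit, since the peak at its distal start stood low in that list.

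Imp (FBgn0285926, chrX:10787869-10824277, reverse strand) encodes the RNA-binding protein of early temporal identity, which opposes Syp. No reproducible summit lay inside it. The one summit within 5 kb, at chrX:10784550, lay 3319 bp beyond its 3′ end and 92 bp upstream of a start site of sesB, which encodes a mitochondrial ADP/ATP carrier, in introns of sesB and the neighbouring carrier gene Ant2. Its pooled signal was 109, rank 2423, with 72.9 and rank 1691 in replicate 1 and 27.8 and rank 8023 in replicate 2. The peak thus lay closer to a start of sesB than to any part of Imp, and without replicate 1 Imp would have had 0 summits. Inside Imp the strongest weaker entry found in both replicates had its summit in an intron at chrX:10802866, with a pooled signal of 75.7 and rank 4542. At the start site of Imp-RD and Imp-RE an entry with a pooled signal of 66.1 and rank 5650 lay 61 bp away. It had a signal of 49.2 in replicate 1, and in replicate 2 the nearest entry was 1601 bp from that start. The 3 other Imp start sites farthest upstream had no pooled entry within 500 bp.

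lin-28, cas and svp had no reproducible summit within 5 kb. lin-28 (FBgn0035626, chr3L:5654681-5657384, forward strand) encodes an RNA-binding protein that blocks the maturation of the microRNA let-7, and the nearest reproducible summit lay 20971 bp upstream of it. cas (FBgn0004878, chr3R:5712975-5716805, reverse strand) encodes castor, a zinc-finger factor of the late embryonic temporal series, and the nearest lay 19770 bp upstream. svp (FBgn0003651, chr3R:12258737-12302785, forward strand) encodes the nuclear receptor Svp, which switches neural stem cells from early to later fates, and the nearest lay 11616 bp downstream with a signal of 190.1. At cas none of the 30000 entries of the pooled list, or of either replicate's list, had a summit within 5 kb. At lin-28 the pooled list held 2 entries and at svp 11, with none ranked above 7673. The lists stop at 30000 entries, so lower signal at these genes was not detectable from them.

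**Figure D2:**
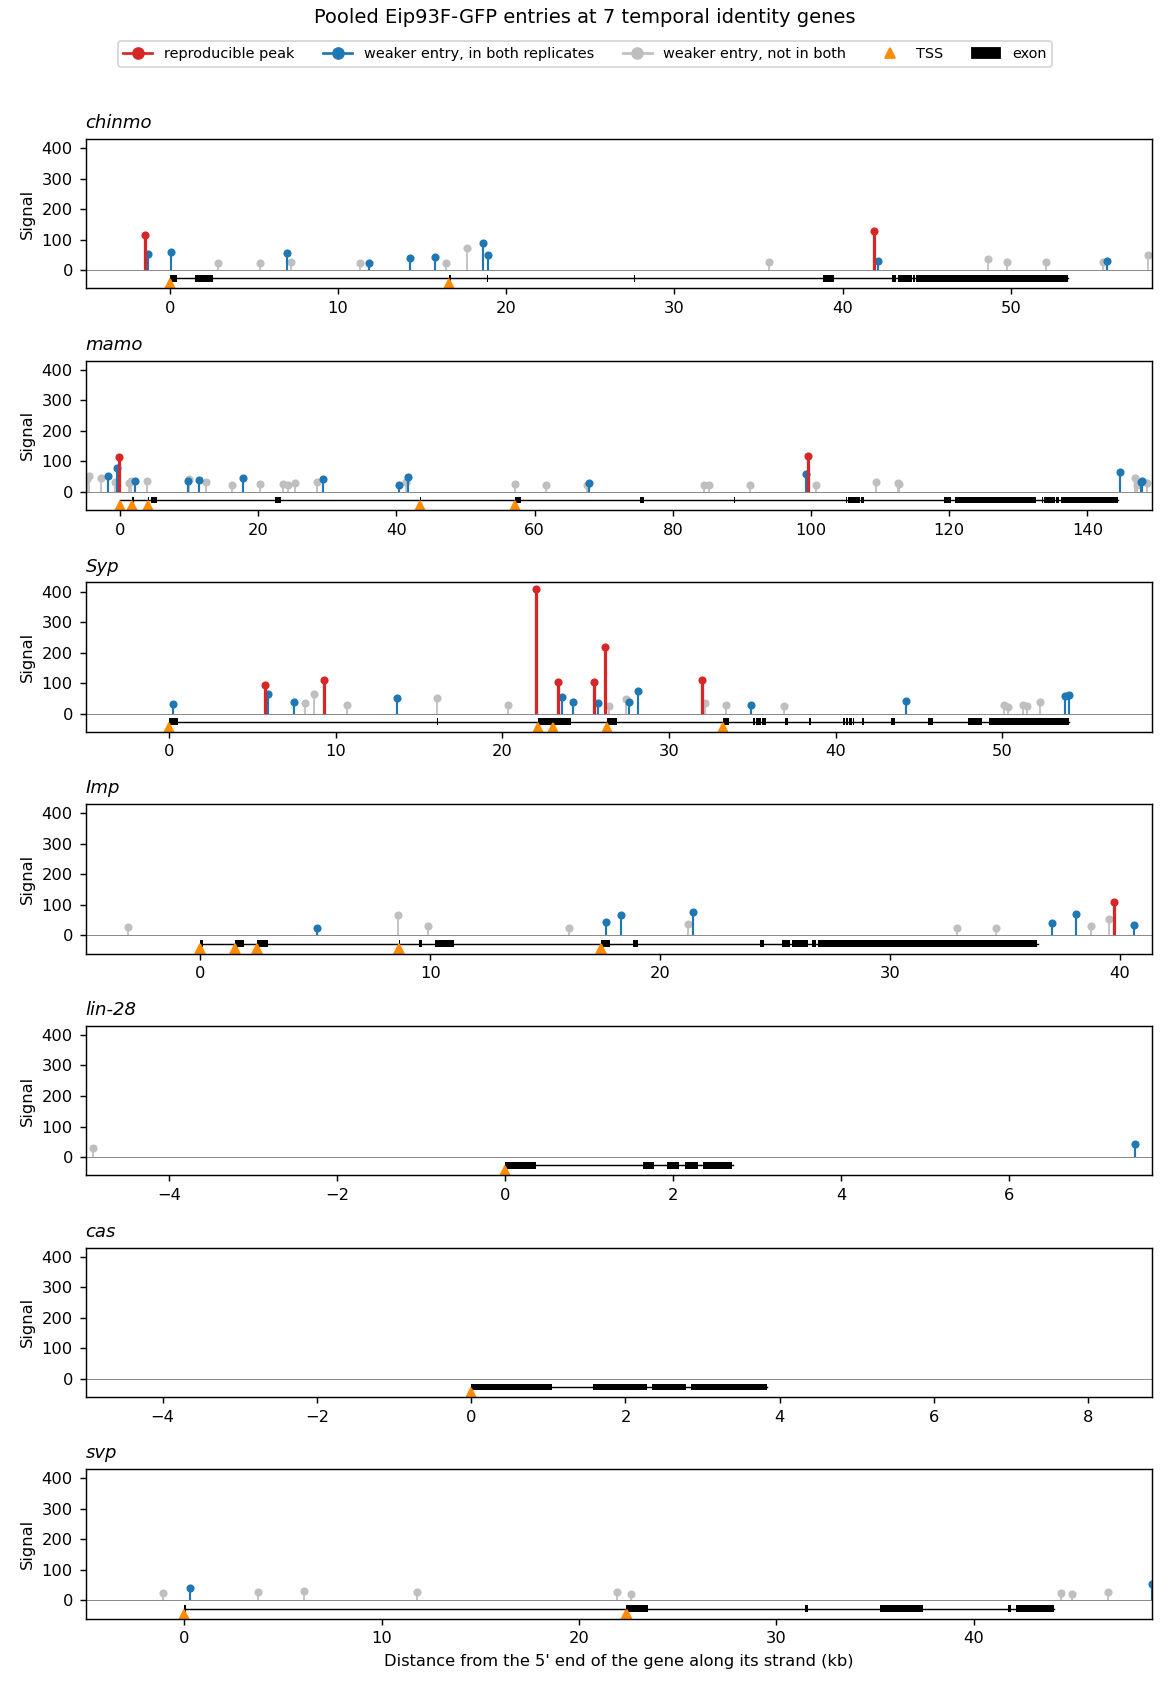
Positions of the entries of the pooled list along each of the 7 genes, drawn as distance from the gene's start (horizontal axis, kb) against pooled signal (vertical axis), with the gene model under each panel and reproducible peaks set off from weaker entries. Syp carries 7 reproducible peaks, with the tallest at 407, and cas carries no entry.

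Measured over all 12 summits, the temporal identity genes held mostly modest peaks. The median pooled signal was 112, against 129 over the 3401 reproducible peaks, whose signals ran from 89.8 to 1529. Only the Syp peaks at chr3R:20778767 and chr3R:20782918 lay above the median of the set, and the other 10 had signals from 94.1 to 129.1. By annotation, 6 of the 12 summits (50%) lay within 500 bp of a start site, where 47.1% of all reproducible summits did, and 5 (41.7%) lay in introns, where 39.0% did. The remaining one, upstream of chinmo, was intergenic, as were 10.8% of all. Only 4 of those 6 promoter summits were at a member's own start site, 3 at Syp and 1 at mamo, and the other 2 were at CG31195 and sesB. The peak at mamo also spans the start site of lncRNA:CR44655, so it cannot be assigned to mamo alone.

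The 7 genes have 22 annotated start sites between them. A reproducible summit lay within 500 bp of 4 of them (18.2%), where 11.8% of the 19630 start sites of all protein-coding genes had one. A pooled entry of any strength lay within 500 bp of 16 (72.7%), where 42.1% of all start sites had one, and in 4 of these 16 the entry was the reproducible peak. In replicate 1 the number was 11 (50%), where 43.9% of all start sites had an entry, and in replicate 2 it was 13 (59.1%), where 42.4% did. Start sites of one gene can share an entry, as the last 2 of svp do, so the 22 are not independent and no test was made.

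The replicates were set side by side for each of the 12 peaks. All 12 summits lay in an entry of replicate 1 and 11 in an entry of replicate 2, among 30000 entries each. Against the leading 3401 entries of each replicate, 10 were matched in replicate 1, 7 in replicate 2 and 5 (41.7%) in both, where 64.2% of all reproducible peaks were matched in both. Those 5 were both chinmo peaks, the intronic mamo peak and the Syp peaks at chr3R:20778767 and chr3R:20782918. Of the 11 summits found in both lists, 7 ranked better in replicate 1. The windows of the 7 genes also held 17 of the leading 3401 entries of replicate 1 and 9 of replicate 2. These are entries and not separate sites, since replicate 1 split the strongest Syp site and the upstream chinmo site. The reproducible set was drawn from the reads of both replicates, so its match in either list is no independent check, and with 2 replicates no error beyond their 2 values can be given.

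**Figure D3:**
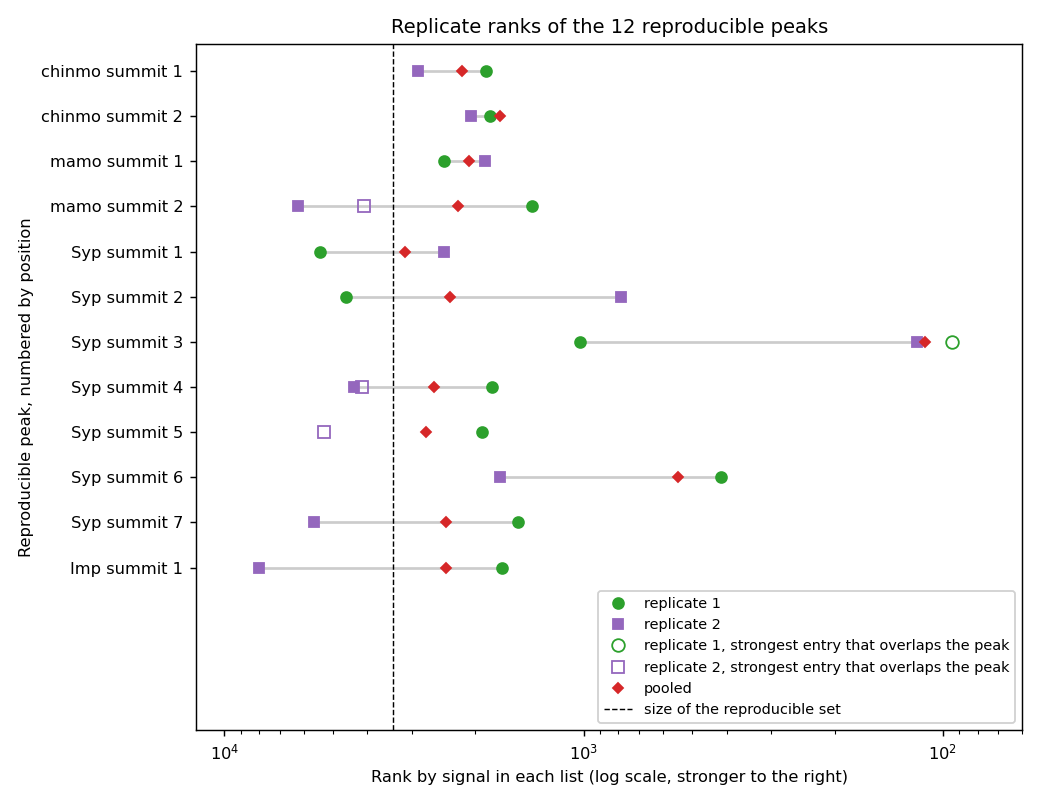
Rank by signal (horizontal axis, log scale, stronger to the right) of each of the 12 reproducible peaks in replicate 1, replicate 2 and the pooled list, with open symbols where the strongest overlapping entry is not the one holding the pooled summit and a dashed line at rank 3401. The fifth Syp peak has no replicate 2 entry that holds its summit, and 5 of the 12 peaks lie to the right of the line in both replicates.

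Below the reproducible set, the windows of the 7 genes held 122 weaker pooled entries: 43 at mamo, 28 at Syp, 22 at chinmo, 16 at Imp, 11 at svp, 2 at lin-28 and 0 at cas. Of these, 47 (38.5%) held a summit found in an entry of both replicates, where 42.0% of all 26599 weaker entries did. Pooled entries of any strength came to 5.47 per 10 kb at Syp (95% exact Poisson interval 3.81 to 7.61), 3.78 at chinmo (2.42 to 5.63), 3.66 at Imp (2.13 to 5.86), 2.91 at mamo (2.13 to 3.90), 2.04 at svp (1.02 to 3.64) and 1.57 at lin-28 (0.191 to 5.69). At cas the value was 0 (0 to 2.67). The 6 chromosome arms held 2.24 per 10 kb. The intervals at Syp and chinmo lie above that density and those at Imp, mamo, svp, lin-28 and cas include it. All these intervals cover counting error only, since entries beside each other are not independent and 10 of the weaker entries overlapped a reproducible peak. The intervals are therefore no test of any gene against the arms.

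**Figure D4:**
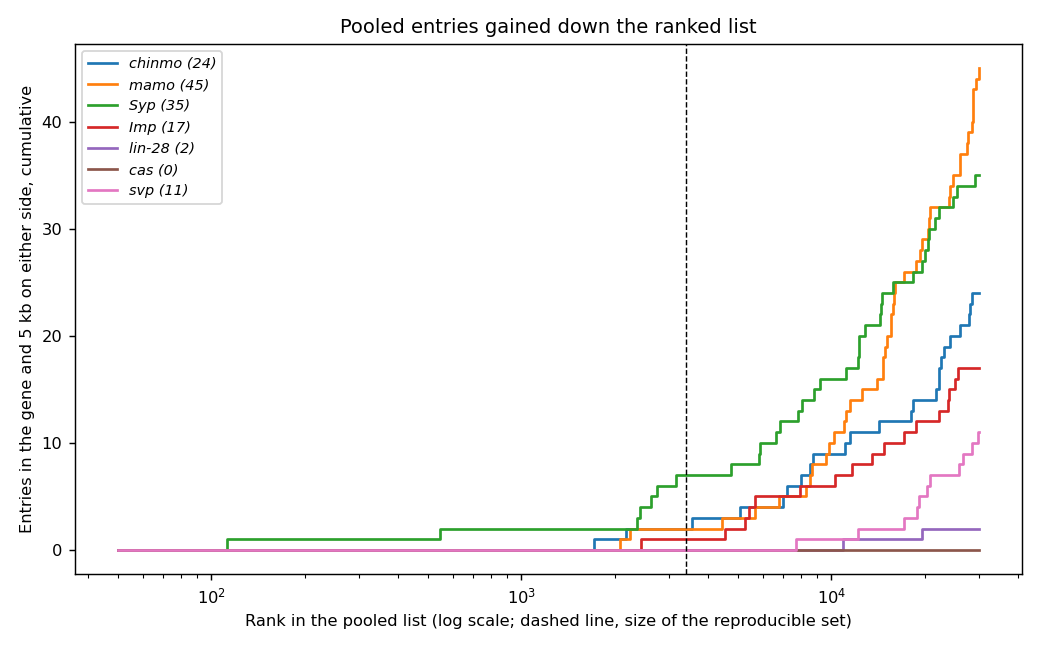
Number of pooled entries at each of the 7 genes (vertical axis) as the list is read from its strongest entry down (horizontal axis, rank, log scale), with a line at rank 3401 where the reproducible set ends. Syp has 7 entries at that line, mamo ends highest with 45 at rank 30000, and cas stays at 0.

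The strongest weaker entry found in both replicates differed from gene to gene. At mamo it lay at chrX:13990975, in an exon of the long noncoding RNA gene lncRNA:CR44655, 448 bp upstream of the mamo-RG start, with a pooled signal of 76.7 and rank 4439. At Syp it lay at chr3R:20784885 with a signal of 73.8 and rank 4728. At svp it lay at chr3R:12307774, 4989 bp past the gene's end, with a signal of 54.5 and rank 7673. At lin-28 it lay at chr3L:5662178, 69 bp from the start site of Sse, the separase gene, with a signal of 42.6 and rank 10877. The entries at svp and lin-28 thus stood outside the gene, close to the 5 kb limit, and those at chinmo, Imp and Syp inside it.

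Sequence words were counted in the 101 bp around each summit, on both strands, beside all 3401 summits and beside windows of the same size 500 bp to either side. GATAAG was in 1 of the 12 windows (8.33%), the intronic chinmo peak, where 10.03% of all summits and 5.04% of the side windows held it. GAGAG was in 2 (16.7%), the strongest Syp peak and the peak at sesB, where 11.9% of all summits and 14.8% of the side windows held it. The E-box word CANNTG was in 3 (25%), where 34.5% and 40.3% did. Each of the 6 other words searched was in 0 of the 12 windows. The AP-1 word TGANTCA was in 2.53% of all summits, the repeat word CACACA in 9.20%, and the DREF word TATCGATA in 0.647%. The nuclear receptor word AGGTCA was in 1.71%, the Zelda word CAGGTA in 2.15%, and CACGTG, which is also an instance of CANNTG, in 1.00%. The members' windows were thus close to the whole set in GATAAG and GAGAG, as far as 12 windows can show, and a word is a match of letters and not a measured site of a factor.

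Other genes of developmental timing were counted by the same rule. Of 16 genes of the neural temporal series, 4 (25%) had a summit within 5 kb, where 34.7% of all protein-coding genes did. The strongest peak was at grh, the grainyhead factor of late neural stem cells, with a pooled signal of 277 and rank 313, and its signal was 158 in replicate 1 and 121 in replicate 2. The others were at hth, with 129.3 and rank 1709, at ab, with 104 and rank 2643, and near ey, in an exon of the neighbouring gene myo, with 100.2 and rank 2818. The other 12 genes of this list, hb and Kr among them, had none.

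Of the genes of metamorphic and heterochronic timing, 8 of the 11 that are protein-coding had a summit, where 34.7% of all protein-coding genes did. Of these, br, EcR and Eip93F span 60 to 100 kb, where 80 of 148 genes had a summit. Both brat and ftz-f1 span 30 to 60 kb, where 47.4% did. Kr-h1 and gce span 10 to 30 kb, where 636 of 1315 did, and Met is under 10 kb, where 32.4% did. Of the 3 without a summit, babo and mei-P26 span 10 to 30 kb and usp is under 10 kb. The Met summit lay downstream of Met, in an intron of the gene Ptp10D. Without flanks 6 of the 11 had a summit, and Kr-h1 and Met had none. None of the microRNA genes mir-let7, mir-125 and mir-100 had one, and these lie side by side and share nearly the same window. In the leading 3401 entries of replicate 2 taken alone, without replicate 1, all 3 microRNA genes and 9 of the 11 had one. The 5 with the strongest peaks were br, the Broad factor of the pupal state, with 230 and rank 488, brat, a translational repressor of neural stem cell growth, with 226 and rank 509, Eip93F itself with 217 and rank 554, gce, a juvenile hormone receptor, with 179.5 and rank 837, and EcR, the ecdysone receptor, with 178 and rank 851. These values are pooled signals. The br summit lay inside both br and Mur2B, 87 bp from a start site of Mur2B. The strongest Syp peak, at 407, was higher than any of these 5 peaks, while every chinmo, mamo and Imp peak was lower. brat and EcR held 9 summits each, Eip93F 7, br 5 and gce 4, beside 7 at Syp. The mean was 1.08 among genes of 10 to 30 kb, 1.32 at 30 to 60 kb and 2.19 at 60 to 100 kb.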

How the data were processed

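The peak lists were deposited on dm6, one per replicate, one pooled and one of reproducible peaks. Per the deposited notes, each was made against a control alignment and the last by the irreproducible discovery rate. The deposited signal is the authors' own value per peak and is comparable only within a list. The deposited −log10 q of the 12 peaks was turned into q, which ran from 0.000943 to 0.0281. No label or note used here names an aligner or a peak caller. Depth is unknown, because the lists hold no reads. Separate cultures or days are not recorded for the replicates.

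All 3401 reproducible peaks were found in the pooled list as its strongest entries. Genes and start sites came from Ensembl release 115, on the same build, read with Python 3.11.15 and pandas 2.3.3. An entry matched a peak when it held the pooled summit. Per the labels, DNA fragments were 200 to 800 bp long, so summit distances shorter than these are approximate. A promoter lay within 500 bp of a start site. The counting steps were tested on simulated data. The genes, lists and words were chosen with earlier results of these data known. Named were the 7 genes, the genes at their summits, the strongest weaker entry found in both replicates and up to 5 genes of each list. Other weaker entries at start sites were named after their values were seen. Alternatives were other flanks, promoter distances, matching rules, word windows, set sizes and each replicate alone. Lists on dm3 were not used.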

Additional observations from a re-analysis of the deposited data

How the results depend on the processing

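The 12 summits at 4 genes became 2 summits at 1 gene, Syp, in the strongest 1700 peaks, and 25 summits, at 4 genes, in the leading 6802 pooled entries, since these settings take fewer and more entries. In the leading 3401 entries of one replicate they were 9 to 17, with overlapping entries counted apart. With flanks of 0, 1000 and 10000 bp there were 9, 10 and 13 summits, and without flanks 3 genes kept one. The share matched in both replicates rose from 41.7% to 91.7% with any entry of the full lists, and was 33.3% with summits within 100 bp. Weaker entries found in both replicates numbered 31 in place of 47 with summits within 100 bp. lin-28, cas and svp had 0 summits under every one of these settings. Without flanks the metamorphic timing list had 6 genes with a summit in place of 8. It had 13 at a flank of 10000 bp or among 6802 entries. Those 13 were in each case 10 protein-coding and all 3 microRNA genes, which share nearly the same window and are not separate places. The neural series had 8 in place of 4 among 6802 entries and 1 in the strongest 1700. Those list counts, and the rank of 94 in place of 1026 for the strongest Syp peak in replicate 1, were chosen after seeing the data. No paired analysis was possible because there is 1 group. Depth is unknown, so absence of a peak is a limit of these lists.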

Other observations

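The 101 bp windows of the strongest 2 Syp peaks, at chr3R:20778767 and chr3R:20782918, share a run of 13 bases, TGCGACTGCGACT. The longest run shared by any pair of the 12 windows has 15 bases, CAAACCAAACCAAAC, at the Syp peaks at chr3R:20766006 and chr3R:20782918, and was in 2 of 3401 summit windows and 1 of 6802 side windows. These runs were noticed on reading the windows, so each count over summit windows includes the windows the run was read from. The counts therefore cannot show that a run is particular to these peaks. Of all 3401 summits, the only 2 with the run of 13 bases in the window were the Syp summits it was read from. It was in 0 of 6802 windows set 500 bp to either side. Its inner 11 bases, GCGACTGCGAC, are also in the window of the peak at sesB beyond Imp, on the reverse strand, and were in 4 of 3401 summit windows and 2 of 6802 side windows. The peaks at Syp belong to one gene, and no test was made of these matches.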
